A study of Mus musculus with 12 samples.

Results

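The mRNAs of histone methylation and chromatin remodeller genes were measured in RNA immunoprecipitations (RIP) of the m6A reader proteins YTHDF1, YTHDF2 and YTHDF3 from cultured mouse neurons. The genes were chosen by name. They are the protein-coding genes whose symbol starts with Kmt, Setd, Kdm, Chd, Arid or Hdac and a digit, or with Smarca to Smarce, among the 16716 genes in the authors' deposited YTHDF1 table, which gave 77 of the 55573 genes counted. All 77 had a mean of at least 10 normalised counts over the 12 libraries and were tested among 17126 genes. By symbol they comprised 16 lysine methyltransferase genes (Kmt and Setd), 18 lysine demethylase genes (Kdm), 10 CHD remodeller genes, 6 SMARCA ATPase or helicase genes, 10 genes for other subunits of the BAF and PBAF complexes, 6 genes for other ARID proteins and 11 histone deacetylase genes.

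Primary hippocampal neurons were prepared from newborn C57BL/6 pups, with the tissue of a litter, both sexes together, pooled. The cultures received Ara-C, which limits dividing glia, and were harvested after 14 days. Endogenous YTHDF1, YTHDF2 or YTHDF3 was precipitated with its own antibody, and bound RNA was sequenced next to the total RNA of a portion of that lysate (Input). Each of the 4 groups had 3 replicate libraries, and the RIPs of a replicate shared 1 Input library, so the 3 comparisons with Input share their control samples. A mock precipitation was not among the libraries analysed here, and the only baseline for enrichment was Input.

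YTHDF proteins bind mRNAs that carry N6-methyladenosine (m6A), a base modification placed mainly in long internal exons and near stop codons, within a short consensus around the methylated A. Histone methyltransferases and demethylases add and remove methyl groups on lysines, deacetylases remove acetyl groups, and remodellers of the CHD, ISWI and SWI/SNF (BAF and PBAF) families move or evict nucleosomes with energy from ATP. Loss of a single copy of many of these genes impairs brain development.

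Input libraries held 9092494 to 13833973 counts, YTHDF1 libraries 10037804 to 38909592, YTHDF2 libraries 6020072 to 9259893 and YTHDF3 libraries 21395271 to 22400602. Together the 77 genes made up 0.587 ± 0.0043% of Input counts, 1.46 ± 0.179% of YTHDF1, 0.964 ± 0.0627% of YTHDF2 and 1.35 ± 0.0832% of YTHDF3 counts (mean ± SD, n = 3 each). All 8 neuronal marker genes were tested, and their summed CPM (counts normalised to a common library total) were 2651 to 4262 in Input. The 4 astrocyte markers summed to 249, 1135 and 2418 CPM in Input replicates 1, 2 and 3, whereas microglial markers summed to 0.109 to 4.18 CPM over all libraries. Fewer cells of a type and less RNA per cell cannot be told apart in these bulk samples.

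More than 50% of the chromatin gene mRNAs were enriched over Input in the YTHDF1 and YTHDF3 RIPs, and fewer in the YTHDF2 RIP. Enriched and depleted genes were those with a log2 fold change of at least 0.32 in size and an adjusted p no higher than 0.05 (edgeR quasi-likelihood F test, Benjamini-Hochberg over all 17126 genes). In the YTHDF1 RIP 50 of the 77 were enriched and 6 depleted, against 27.2% and 25.8% of all genes tested and 29.8% and 23.1% of protein-coding genes. The YTHDF2 RIP had 33 enriched and 3 depleted, against 15.7% and 19.0% of all and 17.7% and 16.8% of protein-coding genes. The YTHDF3 RIP had 41 enriched and 4 depleted, against 16.4% and 23.0% of all and 19.1% and 19.4% of protein-coding genes. The median log2 fold change over the 77 was 1.06, 0.69 and 0.71 for YTHDF1, YTHDF2 and YTHDF3, and that of all genes tested 0.02, 0.02 and 0.05. Every RIP library lay above every Input library for 52, 47 and 51 of the 77 (27.9%, 25.3% and 26.6% of all genes), and below for 6, 7 and 6 (28.0%, 27.5% and 29.1%). The depleted count in YTHDF1 was 10 without YTHDF1 RIP replicate 2 and 3 without YTHDF1 RIP replicate 1, and that in YTHDF3 was 2 without Input replicate 3 or YTHDF3 RIP replicate 2 or 3. Replicate numbers paired the YTHDF3 RIP with Input, and a paired fit restricted to these 6 libraries gave 56 enriched and 5 depleted, against 36.3% and 32.2% of all genes.

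**Figure D1:**
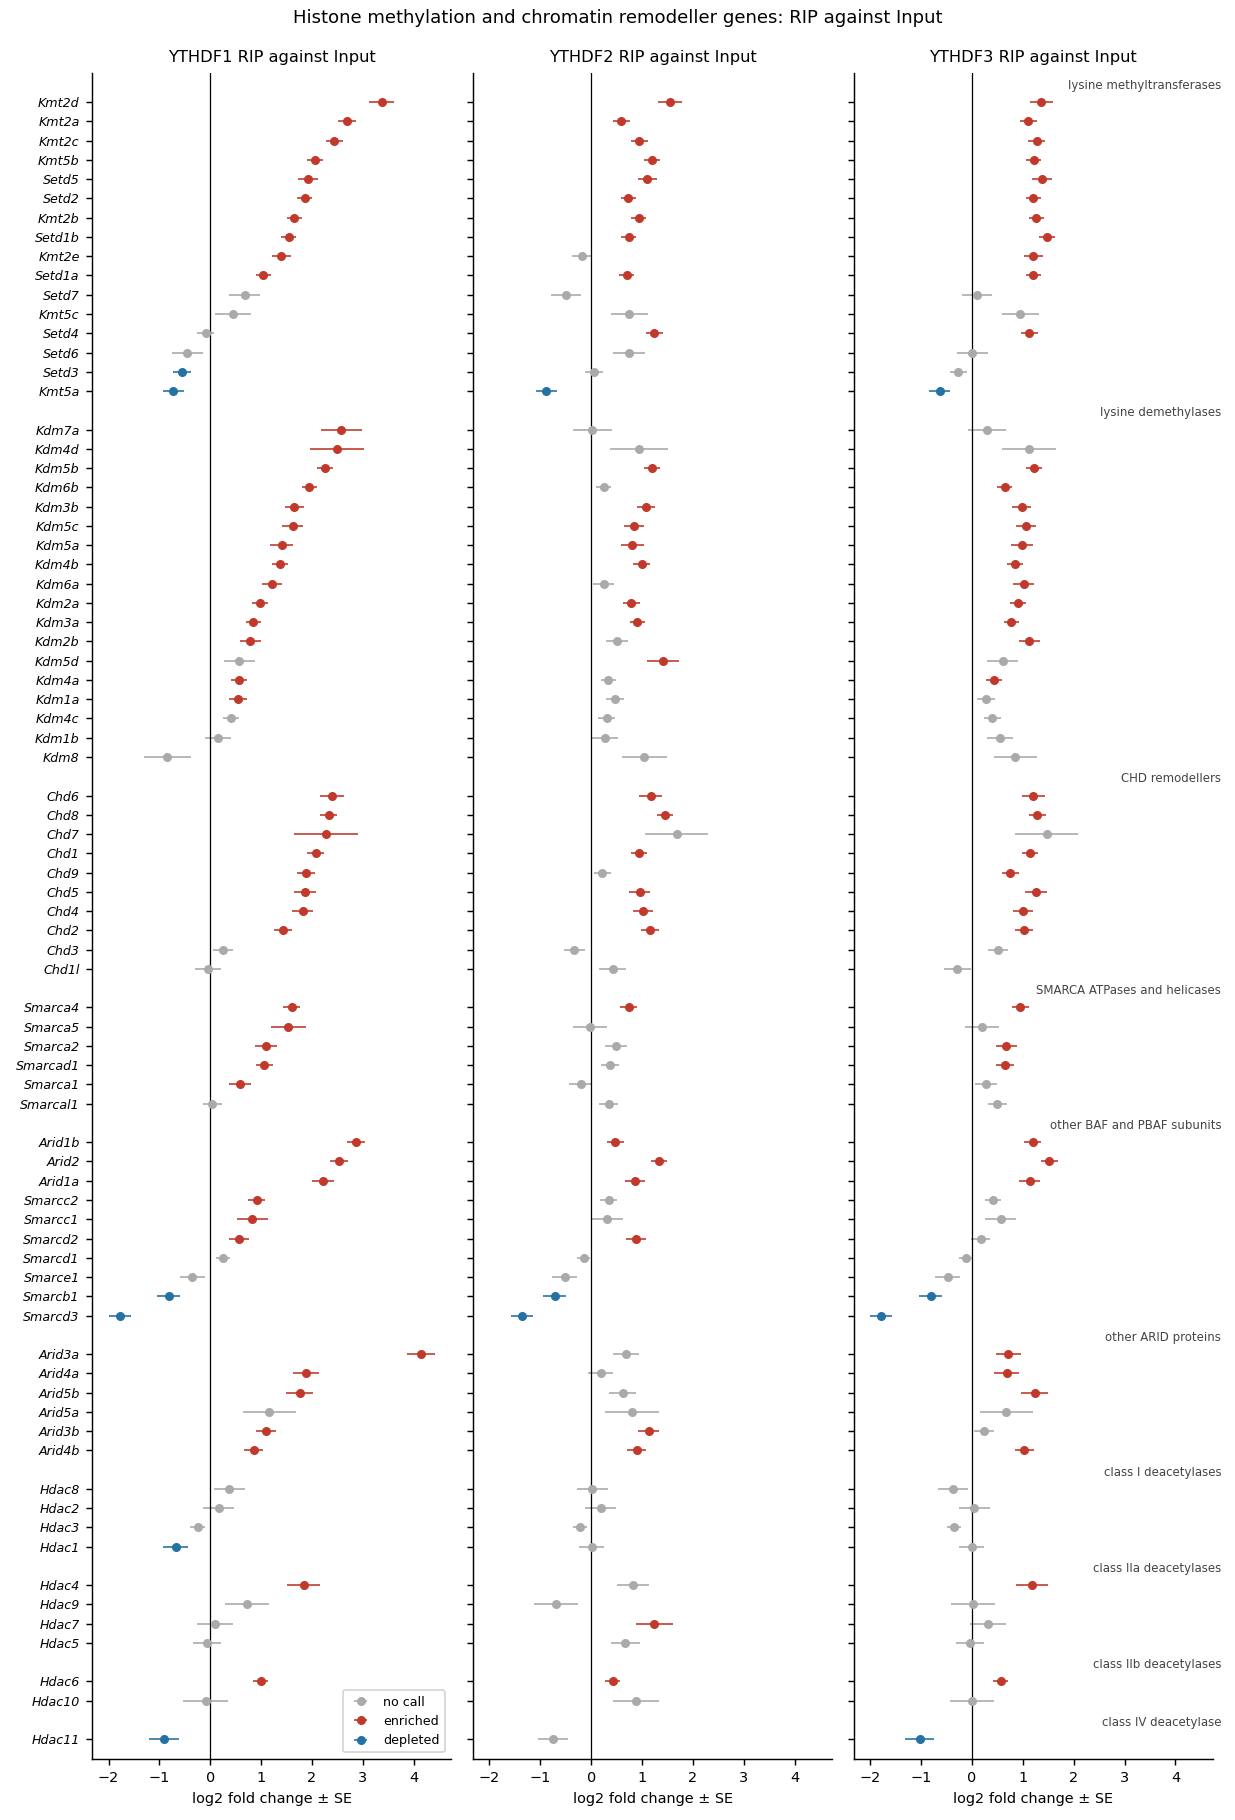
Log2 fold change over Input of each of the 77 genes (points, with bars of 1 SE from edgeR) for YTHDF1, YTHDF2 and YTHDF3, grouped by role. Points to the right of 0 were higher in the RIP than in Input, as were 50, 33 and 41 genes called enriched, while deacetylase genes sat near 0 or below it in most cases.

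Nearly all methyltransferase genes of the KMT2 and SETD1 families were enriched, and most of their proteins methylate a lysine in the tail of histone H3 at promoters and enhancers. Of these 7 genes, 7, 6 and 7 were enriched for YTHDF1, YTHDF2 and YTHDF3. Over all 16 methyltransferase genes the counts were 10, 10 and 11 enriched and 2, 1 and 1 depleted, with median log2 fold changes of 1.47, 0.74 and 1.20. Among protein-coding genes, 29.8%, 17.7% and 19.1% were enriched and 23.1%, 16.8% and 19.4% depleted. Kmt2d, which encodes a large enhancer methyltransferase, had normalised CPM (replicates 1, 2 and 3 in order, here and below) of 235, 261 and 234 (Input), 2478, 1850.0 and 3206 (YTHDF1), 713, 584 and 839 (YTHDF2) and 606, 667 and 604 (YTHDF3). Its libraries did not overlap between Input and any RIP, and the YTHDF1 libraries stood above those of the other RIPs. Against Input, Kmt2d differed by 3.37 ± 0.25 for YTHDF1, 1.55 ± 0.23 for YTHDF2 and 1.36 ± 0.23 for YTHDF3 (log2 ± SE; adjusted p 3.4e-06, 0.000668 and 0.00074).

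Kmt2a, whose product methylates the same histone tail at promoters, had 196, 196 and 170.2 (Input), 1191, 1122 and 1329 (YTHDF1), 317, 273 and 256 (YTHDF2) and 438, 389 and 382 (YTHDF3). Against Input, Kmt2a differed by 2.696 ± 0.18 for YTHDF1, 0.59 ± 0.17 for YTHDF2 and 1.104 ± 0.17 for YTHDF3 (log2 ± SE; adjusted p 2.25e-06, 0.0183 and 0.0004). The YTHDF1 value was far above the other RIPs here as well, and the YTHDF2 call was lost without Input replicate 3 or YTHDF2 RIP replicate 1 (0.49 to 0.50). Kmt2c, the paralog of Kmt2d, changed by 2.44 ± 0.17, 0.95 ± 0.17 and 1.28 ± 0.17 (adjusted p 2.92e-06, 0.00153 and 0.000159). Kmt2e, a member of the same family, had 144, 135 and 131 (Input), 282, 438 and 358 (YTHDF1), 116, 125 and 119 (YTHDF2) and 348, 313 and 286 (YTHDF3). It was enriched by 1.40 ± 0.18 for YTHDF1 and 1.21 ± 0.18 for YTHDF3 (adjusted p 9.66e-05 and 0.000368), while its YTHDF2 libraries lay just below those of Input, at -0.19 ± 0.18 (0.446).

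Setd1b, a promoter methyltransferase of the SETD1 family, changed by 1.54 ± 0.15, 0.74 ± 0.15 and 1.48 ± 0.15 (adjusted p 1.6e-05, 0.00303 and 4.78e-05) for YTHDF1, YTHDF2 and YTHDF3. For Setd2, which trimethylates histone H3 in transcribed gene bodies, the values were 1.85 ± 0.15, 0.73 ± 0.15 and 1.20 ± 0.15 (adjusted p 5.79e-06, 0.00301 and 0.000111). Setd5, a gene mutated in intellectual disability, changed by 1.92 ± 0.20, 1.11 ± 0.20 and 1.38 ± 0.20 (adjusted p 2.47e-05, 0.00157 and 0.000259). Setd4 had low levels and a different order, with CPM of 5.33, 5.49 and 5.25 (Input), 4.61, 5.28 and 5.15 (YTHDF1), 13.4, 12.1 and 12.5 (YTHDF2) and 13.1, 11.5 and 10.5 (YTHDF3). Its YTHDF1 libraries reached into the Input range or lay below it, whereas every YTHDF2 and YTHDF3 library was higher than Input, with log2 fold changes of -0.09 ± 0.17, 1.24 ± 0.17 and 1.13 ± 0.17 (adjusted p 0.674, 0.000475 and 0.000338). Kmt5a, which places a single methyl group on histone H4, was depleted throughout, with CPM of 41, 41.2 and 47.7 (Input), 24, 32.8 and 21.4 (YTHDF1), 21.7, 27.5 and 21.3 (YTHDF2) and 33.8, 24.7 and 25.2 (YTHDF3). Against Input, Kmt5a differed by -0.73 ± 0.21 for YTHDF1, -0.88 ± 0.21 for YTHDF2 and -0.63 ± 0.21 for YTHDF3 (log2 ± SE; adjusted p 0.0109, 0.00726 and 0.0287). The YTHDF3 call of Kmt5a was lost without Input replicate 2 or 3 or YTHDF3 RIP replicate 2 or 3 (-0.67 to -0.52). In the paired YTHDF3 fit it was -0.58 ± 0.10 (adjusted p 2.24e-05). The other depleted gene of this group was Setd3, in the YTHDF1 RIP alone, whose product is known as an actin methyltransferase (named after its value was seen).

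The sequence GGACT, the best known form of the m6A consensus, was searched on the transcript strand of the protein-coding transcript with the longest coding sequence of each gene (GRCm38). At least 1 copy lay within 100 bases of the stop codon in 18 of the 77 transcripts (23.4%) and in 3191 of 13366 protein-coding genes tested (23.9%), and 2 of the 77 had no copy anywhere. The copy nearest to the stop codon is given for 4 genes enriched in at least 1 RIP and 4 depleted in at least 1, with the motif in capitals and 10 bases on each side, since these genes include high and low values.
Kmt2d: atatgggccgGGACTacccagaagt
Kmt2a: ccatgctgaaGGACTtcccagcacc
Chd8: tctggcccttGGACTttggaaatgt
Arid3a: agagccgccaGGACTcagccgtgag
Smarcd3: cctgggctctGGACTccccctctcg
Smarcb1: gccatcctgaGGACTggggtaggag
Kmt5a: tttccaaggtGGACTtgaacagatg
Hdac1: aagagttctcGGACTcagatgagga
For the enriched genes the windows were chr15:98834189-98834213 on the minus strand (Kmt2d, 3′ UTR, the motif A 299 bases after the end of the stop codon), chr9:44807827-44807851 on the minus strand (Kmt2a, 3′ UTR, 63 bases after the end of the stop codon), chr14:52198523-52198547 on the minus strand (Chd8, 3′ UTR, 57 bases after the end of the stop codon) and chr10:79951254-79951278 on the plus strand (Arid3a, coding exon, 277 bases before the end of the stop codon). For the depleted genes they were chr5:24592675-24592699 on the minus strand (Smarcd3, 3′ UTR, 64 bases after the end of the stop codon), chr10:75896937-75896961 on the minus strand (Smarcb1, 3′ UTR, 100 bases after the end of the stop codon), chr5:124460907-124460931 on the plus strand (Kmt5a, 3′ UTR, 221 bases after the end of the stop codon) and chr4:129517451-129517475 on the minus strand (Hdac1, coding exon, 184 bases before the end of the stop codon). Of the copies printed, those of Kmt2a, Chd8 and Smarcd3 lay wholly within 100 bases of the stop codon. Such a copy was present in 13 of the 50 genes enriched in YTHDF1 and 1 of the 6 depleted. For YTHDF2 it was 8 of 33 and 1 of 3, and for YTHDF3 10 of 41 and 1 of 4. The match is of letters only, since methylation was not measured in these libraries.

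Lysine demethylase genes were enriched without any depleted member. The counts were 14, 8 and 11 of 18 for YTHDF1, YTHDF2 and YTHDF3, with median log2 fold changes of 1.09, 0.80 and 0.85. Among protein-coding genes 29.8%, 17.7% and 19.1% were enriched and 23.1%, 16.8% and 19.4% depleted. The paired YTHDF3 fit had all 18 enriched, against 36.3% of all genes. Kdm6b, which removes the repressive methyl mark of Polycomb from histone H3, had CPM of 69.8, 72.9 and 75.3 (Input), 242, 304 and 296 (YTHDF1), 79.6, 95 and 84.1 (YTHDF2) and 111, 113 and 117 (YTHDF3). Its YTHDF1 libraries were higher than all others, and the change was 1.95 ± 0.15 for YTHDF1, 0.25 ± 0.15 for YTHDF2 and 0.64 ± 0.15 for YTHDF3 (SE; adjusted p 5.23e-06, 0.224 and 0.00539). Kdm6a, its X-linked relative, changed by 1.21 ± 0.20, 0.25 ± 0.20 and 1.01 ± 0.20 (adjusted p 0.00048, 0.368 and 0.00214). Kdm5c, an X-linked demethylase of promoter histone H3 that is mutated in intellectual disability, changed by 1.62 ± 0.21, 0.84 ± 0.20 and 1.06 ± 0.20 (adjusted p 8.12e-05, 0.00806 and 0.00168).

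Kdm7a, a demethylase of repressive marks, was at 38.9, 47.7 and 21.5 (Input), 131, 218 and 296 (YTHDF1), 44.7, 25.1 and 40.1 (YTHDF2) and 59.4, 44.9 and 28.9 (YTHDF3). Only the YTHDF1 libraries stood clear of Input, and the log2 fold changes were 2.57 ± 0.40, 0.02 ± 0.38 and 0.30 ± 0.38 (adjusted p 0.00029, 0.972 and 0.566). With Input and YTHDF3 libraries paired, the YTHDF3 value was 0.36 ± 0.11 (adjusted p 0.00494) and passed. Kdm5d, the Y-linked paralog of Kdm5c with which it can share reads, changed by 0.57 ± 0.31, 1.40 ± 0.31 and 0.60 ± 0.31 (adjusted p 0.14, 0.00539 and 0.144), and in the paired YTHDF3 fit by 0.62 ± 0.12 (adjusted p 0.000102). The flavin-dependent demethylase gene Kdm1a was near the threshold, at 0.54 ± 0.18, 0.47 ± 0.18 and 0.28 ± 0.18 (adjusted p 0.0256, 0.0653 and 0.251). Its YTHDF1 call did not hold without Input replicate 1 or 2 or YTHDF1 RIP replicate 2 (0.32 to 0.51), its YTHDF2 value passed without YTHDF1 RIP replicate 2 (0.45), and its paired YTHDF3 value was 0.34 ± 0.09 (adjusted p 0.00246).

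Kdm8 had few counts, a mean of 33.2 normalised counts per library, and CPM of 1.29, 2.27 and 1.07 (Input), 0.461, 1.5 and 0.616 (YTHDF1), 2.92, 4.33 and 2.46 (YTHDF2) and 2.57, 2.67 and 3.24 (YTHDF3). Its YTHDF1 libraries overlapped with Input and its YTHDF2 and YTHDF3 libraries lay above it, at -0.84 ± 0.46, 1.04 ± 0.44 and 0.85 ± 0.43 (adjusted p 0.142, 0.0885 and 0.136). None of these passed with all 12 libraries, and without YTHDF1 RIP replicate 2, the highest of its group, each passed, at -1.55, 1.02 and 0.91. The paired YTHDF3 value of Kdm8 was 0.89 ± 0.26 (adjusted p 0.004).

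CHD remodeller genes gave 8, 6 and 7 of 10 enriched for YTHDF1, YTHDF2 and YTHDF3 and none depleted, with median log2 fold changes of 1.87, 0.99 and 1.08. The shares of protein-coding genes were 29.8%, 17.7% and 19.1% enriched and 23.1%, 16.8% and 19.4% depleted. Chd8, a remodeller gene with strong ties to autism, had CPM of 101, 105 and 110.5 (Input), 567, 458 and 560.2 (YTHDF1), 295, 254 and 312 (YTHDF2) and 253, 256 and 263 (YTHDF3). No RIP library overlapped with Input. Against Input, Chd8 differed by 2.32 ± 0.16 for YTHDF1, 1.45 ± 0.16 for YTHDF2 and 1.29 ± 0.16 for YTHDF3 (log2 ± SE; adjusted p 2.92e-06, 0.000241 and 0.000116). Chd4, the main ATPase of the NuRD corepressor in proliferating cells, changed by 1.81 ± 0.20, 1.02 ± 0.20 and 1.00 ± 0.20 (adjusted p 3.89e-05, 0.00271 and 0.00215). Its neuronal paralog Chd5 changed by 1.86 ± 0.21, 0.95 ± 0.21 and 1.26 ± 0.21 (adjusted p 4.23e-05, 0.00471 and 0.000669). Chd3, the third NuRD ATPase and the most abundant of the 77 mRNAs in Input per length, was at 573, 455 and 418 (Input), 534, 654 and 536 (YTHDF1), 414, 388 and 350.3 (YTHDF2) and 838, 615 and 610.5 (YTHDF3). The YTHDF1 libraries of Chd3 overlapped with Input and the YTHDF3 libraries all lay above it. The YTHDF2 libraries were all below Input, the highest only narrowly. The changes were 0.25 ± 0.20, -0.33 ± 0.20 and 0.51 ± 0.20 (adjusted p 0.307, 0.226 and 0.061). The paired YTHDF3 value of Chd3 was 0.57 ± 0.10 (adjusted p 2.17e-05), and with all groups it passed without Input replicate 1 or YTHDF1 RIP replicate 2 (0.56 to 0.66).

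Chd7, a remodeller of neural progenitors and glial precursors, varied widely between replicates. Its CPM were 8.83, 37.6 and 49.9 (Input), 167, 145 and 155 (YTHDF1), 92, 126 and 89.8 (YTHDF2) and 24, 94.2 and 147 (YTHDF3). In Input and the YTHDF3 RIP it was lowest in replicate 1 and highest in replicate 3, as were the astrocyte markers, which summed to 249, 1135 and 2418 CPM in Input and 184, 729 and 1435 CPM in the YTHDF3 RIP, and the part of these cells in the result was not tested. Every YTHDF1 and YTHDF2 library lay above Input. Against Input, Chd7 differed by 2.28 ± 0.63 for YTHDF1, 1.68 ± 0.62 for YTHDF2 and 1.47 ± 0.62 for YTHDF3 (log2 ± SE; adjusted p 0.0102, 0.0556 and 0.0799). The YTHDF2 value passed without Input replicate 3 or YTHDF3 RIP replicate 1 or 3 (1.68 to 2.13), and the YTHDF3 value without YTHDF3 RIP replicate 1 (1.91). In the paired fit the YTHDF3 change was 1.52 ± 0.10 (adjusted p 5.91e-12), each replicate being above the Input of its number.

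Among the SMARCA genes, which encode ATPases and helicases, 5, 1 and 3 of 6 were enriched for YTHDF1, YTHDF2 and YTHDF3 and none was depleted. For YTHDF2 this share was near the 17.7% of protein-coding genes. The YTHDF2 count was 2 without YTHDF1 RIP replicate 2 or YTHDF2 RIP replicate 2. Smarca4, which encodes the BRG1 ATPase of the BAF complex, had CPM of 249, 254 and 313 (Input), 788, 870.5 and 815 (YTHDF1), 470.4, 463 and 424 (YTHDF2) and 488, 498 and 582 (YTHDF3). Its libraries were above Input in every RIP, by 1.60 ± 0.17, 0.74 ± 0.17 and 0.94 ± 0.17 (adjusted p 2.71e-05, 0.00595 and 0.00104). Smarca2, the alternative BAF ATPase BRM, changed by 1.09 ± 0.21, 0.49 ± 0.21 and 0.68 ± 0.21 (adjusted p 0.00119, 0.0924 and 0.0236). The YTHDF3 call of Smarca2 was lost without Input replicate 3 or YTHDF3 RIP replicate 1 or 2 (0.61 to 0.65), and its YTHDF2 value passed without YTHDF2 RIP replicate 2 (0.65). Its paired YTHDF3 value was 0.74 ± 0.09 (adjusted p 2.33e-07).

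The other BAF and PBAF subunit genes included enriched and depleted members. Of 10, 6, 4 and 3 were enriched and 2, 2 and 2 depleted for YTHDF1, YTHDF2 and YTHDF3. Of protein-coding genes, 29.8%, 17.7% and 19.1% were enriched and 23.1%, 16.8% and 19.4% depleted, so that the depleted shares were near these. In the paired YTHDF3 fit 5 were enriched, against 36.3% of all genes. The ARID subunit genes, whose large proteins hold the complex together, were at the upper end. Arid1b had CPM of 157, 148 and 164 (Input), 1074, 1056 and 1284 (YTHDF1), 208, 195 and 249 (YTHDF2) and 385, 348 and 339 (YTHDF3). The YTHDF1 libraries stood well apart from the rest, no RIP library overlapped with Input, and the changes were 2.86 ± 0.18, 0.47 ± 0.17 and 1.19 ± 0.17 (adjusted p 1.72e-06, 0.0482 and 0.000259). The YTHDF2 call of Arid1b was lost without Input replicate 1, 2 or 3, YTHDF2 RIP replicate 1, 2 or 3 or YTHDF3 RIP replicate 1, 2 or 3 (0.36 to 0.54), and with the replicate as a block in the fit of all groups. Its paralog Arid1a changed by 2.21 ± 0.21, 0.86 ± 0.20 and 1.14 ± 0.20 (adjusted p 1.38e-05, 0.0073 and 0.00114). Arid2, the ARID subunit of PBAF, changed by 2.53 ± 0.17, 1.33 ± 0.17 and 1.52 ± 0.17 (adjusted p 2.55e-06, 0.00034 and 6.52e-05).

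The depleted subunit genes were Smarcd3 and Smarcb1. Smarcd3 encodes the BAF60C subunit and had CPM of 61, 47.7 and 63.8 (Input), 14.4, 20.6 and 15.3 (YTHDF1), 19.5, 25.8 and 21.7 (YTHDF2) and 20.5, 15 and 14.5 (YTHDF3). Every RIP library was below every Input library. Against Input, Smarcd3 differed by -1.78 ± 0.22 for YTHDF1, -1.36 ± 0.22 for YTHDF2 and -1.79 ± 0.22 for YTHDF3 (log2 ± SE; adjusted p 6.23e-05, 0.000876 and 0.000102). Smarcb1, which encodes the core subunit SNF5, had CPM of 48.3, 53.4 and 68.1 (Input), 22.5, 42.7 and 30.9 (YTHDF1), 35.2, 36.9 and 31.1 (YTHDF2) and 33, 29.2 and 34.5 (YTHDF3). Its Input libraries again lay above all RIP libraries, and the changes were -0.82 ± 0.23, -0.72 ± 0.23 and -0.81 ± 0.23 (adjusted p 0.0101, 0.0295 and 0.0139). The YTHDF2 call of Smarcb1 was lost without Input replicate 2 or 3 or YTHDF2 RIP replicate 1, 2 or 3 (-0.77 to -0.59), and the YTHDF3 call without Input replicate 3 or YTHDF3 RIP replicate 2 (-0.72 to -0.61). The paired YTHDF3 value of Smarcb1 was -0.74 ± 0.10 (adjusted p 2.88e-07). Smarcc2, a scaffold subunit, changed by 0.91 ± 0.16, 0.34 ± 0.16 and 0.41 ± 0.16 (adjusted p 0.000713, 0.119 and 0.0629), and its YTHDF3 value was 0.46 ± 0.09 (adjusted p 0.000111) in the paired fit and passed with all groups without YTHDF1 RIP replicate 1 or 2 (0.41 to 0.46). Smarce1, the BAF57 subunit gene, changed by -0.35 ± 0.24, -0.52 ± 0.25 and -0.48 ± 0.24 (adjusted p 0.247, 0.12 and 0.143). It was -0.41 ± 0.09 (adjusted p 0.000435) in the paired YTHDF3 fit, and passed as depleted in YTHDF1 without YTHDF1 RIP replicate 2 (-0.75) and in YTHDF2 without YTHDF1 RIP replicate 2 (-0.54).

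Of the 6 genes for ARID proteins outside the BAF complexes, 5, 2 and 4 were enriched for YTHDF1, YTHDF2 and YTHDF3, against 29.8%, 17.7% and 19.1% of protein-coding genes. The YTHDF3 count was 2 without Input replicate 2 or 3, YTHDF2 RIP replicate 2 or 3 or YTHDF3 RIP replicate 1 or 2. Arid3a, which encodes an AT-rich DNA-binding protein, had the highest YTHDF1 value of all 77 genes. Its CPM were 8.83, 8.27 and 4.82 (Input), 112, 126 and 151 (YTHDF1), 11.8, 12.4 and 11.4 (YTHDF2) and 15.2, 11.7 and 9.19 (YTHDF3). Input counts were 45 to 116. The YTHDF1 libraries stood far above every other library, whereas the YTHDF2 and YTHDF3 libraries lay just above the Input range. Against Input, Arid3a differed by 4.14 ± 0.27 for YTHDF1, 0.69 ± 0.25 for YTHDF2 and 0.71 ± 0.25 for YTHDF3 (log2 ± SE; adjusted p 2.25e-06, 0.053 and 0.0392). The YTHDF3 call was lost without Input replicate 2 or 3, YTHDF2 RIP replicate 1, 2 or 3 or YTHDF3 RIP replicate 1 or 2 (0.51 to 0.81), and the YTHDF2 value passed without YTHDF3 RIP replicate 1 or 3 (0.69 to 0.70). The paired YTHDF3 value of Arid3a was 0.77 ± 0.14 (adjusted p 2.72e-05).

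**Figure D2:**
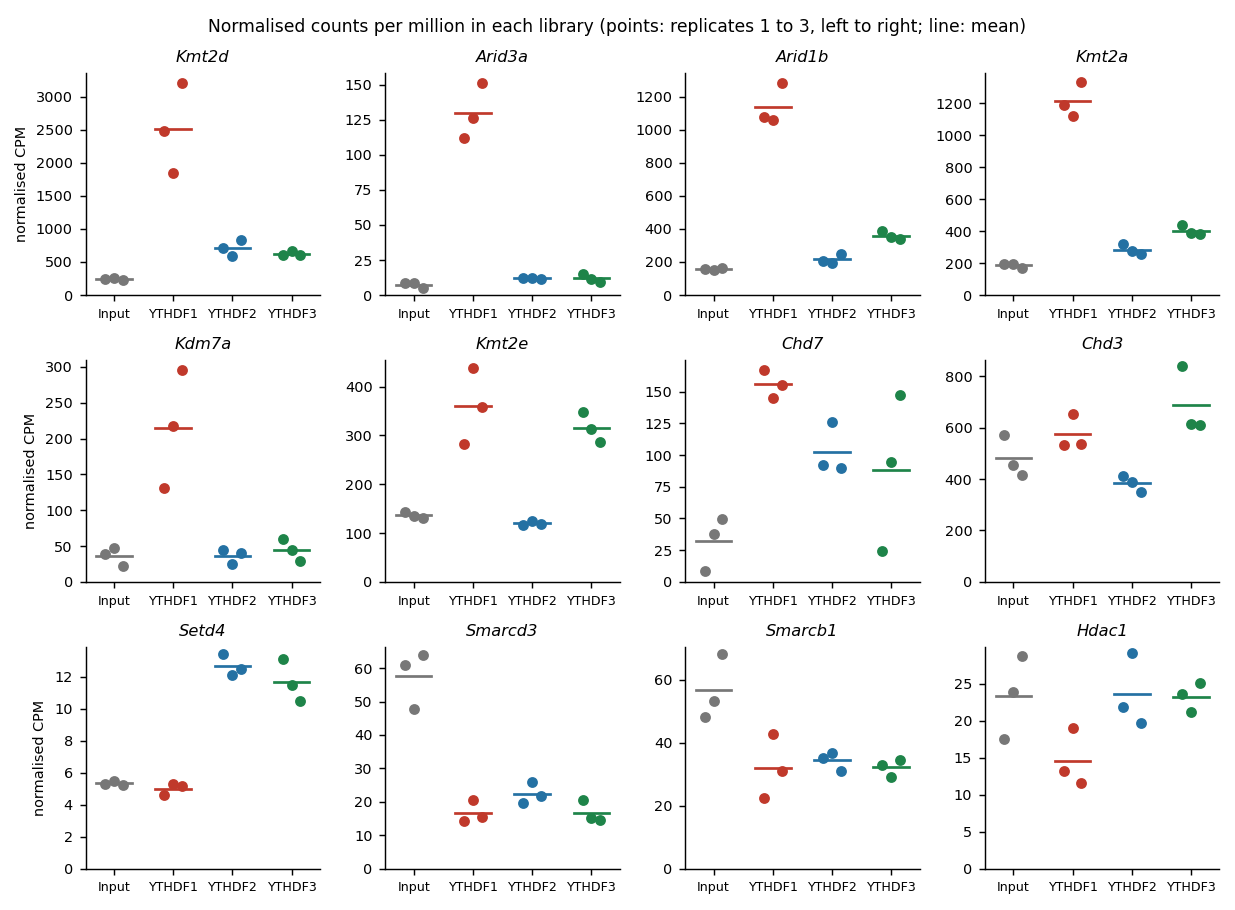
Normalised CPM of 12 of the genes in every library (points; the line is the mean of 3 replicates) for Input and the YTHDF1, YTHDF2 and YTHDF3 RIPs. Kmt2d, Arid3a, Arid1b, Kmt2a and Kdm7a were highest in the YTHDF1 libraries, Setd4 was higher in the YTHDF2 and YTHDF3 libraries than in Input and YTHDF1, and Smarcd3 and Smarcb1 were highest in Input.

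Of the 11 deacetylase genes 2 were enriched in each RIP, against 29.8%, 17.7% and 19.1% of protein-coding genes, so that for YTHDF2 and YTHDF3 the share was near that of all protein-coding genes, and 2, 0 and 1 were depleted for YTHDF1, YTHDF2 and YTHDF3. The class I genes, some of whose enzymes work in the NuRD, Sin3 and CoREST corepressors, had no enriched member in any RIP. Hdac1 had CPM of 17.6, 23.9 and 28.8 (Input), 13.3, 19 and 11.6 (YTHDF1), 21.9, 29.1 and 19.7 (YTHDF2) and 23.6, 21.2 and 25.1 (YTHDF3). Its YTHDF1 libraries reached into the Input range, and the changes were -0.68 ± 0.25, 0.01 ± 0.24 and -0.01 ± 0.24 (adjusted p 0.0348, 0.982 and 0.988). Hdac1 lost its YTHDF1 call without Input replicate 2 or 3, YTHDF1 RIP replicate 1 or 3 or YTHDF3 RIP replicate 2 (-0.68 to -0.53). Hdac2 changed by 0.16 ± 0.31, 0.19 ± 0.31 and 0.05 ± 0.30 (adjusted p 0.68, 0.668 and 0.919) and Hdac3 by -0.25 ± 0.14, -0.22 ± 0.14 and -0.36 ± 0.14 (adjusted p 0.162, 0.246 and 0.0652), and Hdac3 passed as depleted in YTHDF1 without YTHDF1 RIP replicate 2 (-0.36).

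Among class IIa genes, whose proteins shuttle between nucleus and cytoplasm, Hdac4 was enriched in YTHDF1 and YTHDF3. It had CPM of 112, 94.7 and 70.3 (Input), 315, 219.5 and 459 (YTHDF1), 163, 114 and 214 (YTHDF2) and 254, 215 and 159 (YTHDF3), so that every RIP library lay above Input, although replicate 2 of YTHDF2 did so only narrowly. The changes were 1.84 ± 0.32, 0.82 ± 0.32 and 1.18 ± 0.32 (adjusted p 0.000674, 0.0646 and 0.0122), and the YTHDF2 value passed without YTHDF1 RIP replicate 2 or 3 or YTHDF2 RIP replicate 2 (0.80 to 1.03). Its paralog Hdac5 changed by -0.07 ± 0.28, 0.67 ± 0.28 and -0.03 ± 0.28 (adjusted p 0.859, 0.0811 and 0.934). The 1 class IIa gene enriched in YTHDF2 was Hdac7, named after its value was seen. Hdac6, the class IIb tubulin deacetylase, changed by 0.99 ± 0.15, 0.43 ± 0.15 and 0.56 ± 0.15 (adjusted p 0.00024, 0.0449 and 0.0107), and its YTHDF2 call was lost without Input replicate 2 or 3, YTHDF1 RIP replicate 3, YTHDF2 RIP replicate 1, 2 or 3 or YTHDF3 RIP replicate 1, 2 or 3 (0.32 to 0.44) and with the replicate as a block. Hdac11, the class IV enzyme, was at 49.9, 41.6 and 26.5 (Input), 19, 17.8 and 25.6 (YTHDF1), 23.3, 18.4 and 28.6 (YTHDF2) and 25.1, 19.1 and 13.5 (YTHDF3). Its YTHDF1 and YTHDF3 libraries lay below Input and 1 YTHDF2 library reached into it, and the changes were -0.92 ± 0.29, -0.75 ± 0.29 and -1.03 ± 0.29 (adjusted p 0.0203, 0.0682 and 0.015). Hdac11 lost its YTHDF1 call without Input replicate 1 or 2 or YTHDF1 RIP replicate 1 (-0.88 to -0.71) and the YTHDF3 call without Input replicate 1 or YTHDF3 RIP replicate 3 (-0.83 to -0.82), while its YTHDF2 value passed without Input replicate 3 (-0.99). Its value in the paired YTHDF3 fit was -0.98 ± 0.10 (adjusted p 9.54e-09).

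The RIPs were then compared directly, since a call in 1 RIP and not in another does not show that they differ. Here a call needed a 2-fold difference and an adjusted p no higher than 0.05. Between YTHDF1 and YTHDF2, 22 of the 77 were higher in YTHDF1 and 4 lower, against 11.4% and 6.1% of all and 11.4% and 5.33% of protein-coding genes. Between YTHDF1 and YTHDF3, 15 were higher in YTHDF1 and 2 lower, against 10.8% and 3.63% of all and 9.29% and 3.0% of protein-coding genes. YTHDF2 was higher than YTHDF3 for 0 genes and lower for 1, against 3.95% and 1.16% of all and 2.65% and 1.33% of protein-coding genes. The 4 genes lower in YTHDF1 than in YTHDF2 were 2 without YTHDF1 RIP replicate 3 or YTHDF2 RIP replicate 2, the 2 lower than in YTHDF3 were 1 without YTHDF1 RIP replicate 3 or YTHDF3 RIP replicate 3, and 1 gene was higher in YTHDF2 than in YTHDF3 without YTHDF3 RIP replicate 1. A joint test of the 3 RIPs gave an adjusted p of at most 0.05 for 43 of the 77, against 32.3% of all genes. The median of the 77 was 0.58, 0.41 and -0.13 in the YTHDF1 to YTHDF2, YTHDF1 to YTHDF3 and YTHDF2 to YTHDF3 comparisons, and that of all genes 0.03, 0.19 and 0.07.

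Arid3a showed the highest difference, 3.45 ± 0.27 between YTHDF1 and YTHDF2 and 3.43 ± 0.26 between YTHDF1 and YTHDF3 (log2 ± SE; adjusted p 1.89e-05 and 2.04e-05). Kdm7a differed by 2.55 ± 0.40 (0.000776) and 2.28 ± 0.39 (0.00214) in the same comparisons. Arid1b was higher in YTHDF1 than in YTHDF2 by 2.39 ± 0.18 (1.41e-05), and Kmt2d higher in YTHDF1 than in YTHDF3 by 2.005 ± 0.23 (0.000211). The genes that were lower in YTHDF1 included Setd4, by -1.33 ± 0.17 against YTHDF2 and -1.22 ± 0.17 against YTHDF3 (0.000223 and 0.000556). Kdm8 was also lower in YTHDF1, by -1.89 ± 0.46 and -1.70 ± 0.44 (0.0101 and 0.0183), the latter lost without YTHDF1 RIP replicate 3 or YTHDF3 RIP replicate 3 (-1.59 to -1.46). Setd6, a methyltransferase of non-histone proteins, was lower in YTHDF1 than in YTHDF2 by -1.20 ± 0.31 (0.0143), which was lost without YTHDF1 RIP replicate 3 or YTHDF2 RIP replicate 2 (-1.01 to -0.99). The only call between YTHDF2 and YTHDF3 was Kmt2e, lower in YTHDF2 by -1.40 ± 0.18 (0.00281).

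How libraries were scaled mattered for these counts. Scaling by library size alone, which moved the median of all genes by -0.40, 0.07 and 0.33 for YTHDF1, YTHDF2 and YTHDF3 against Input, left 42, 37 and 53 of the 77 enriched and 11, 3 and 2 depleted. Between YTHDF1 and YTHDF3, 3 were then higher in YTHDF1 and 9 lower, against 4.48% and 20.1% of all genes. The median was -0.33 with that of all genes at -0.54. The median of the 77 minus that of all genes was 0.21 here and 0.22 with TMM factors. In a fit of YTHDF1 and YTHDF3 alone 6 were higher in YTHDF1, against 5.21% of all genes, and with the replicate as a block in that fit 1 was higher and 0 lower, against 1.85% and 0.596%. The methods describe lysate pools split over the RIPs, but same-numbered YTHDF1 and YTHDF3 libraries did not all deviate together, and whether their numbers mark the same lysates is not known.

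**Figure D3:**
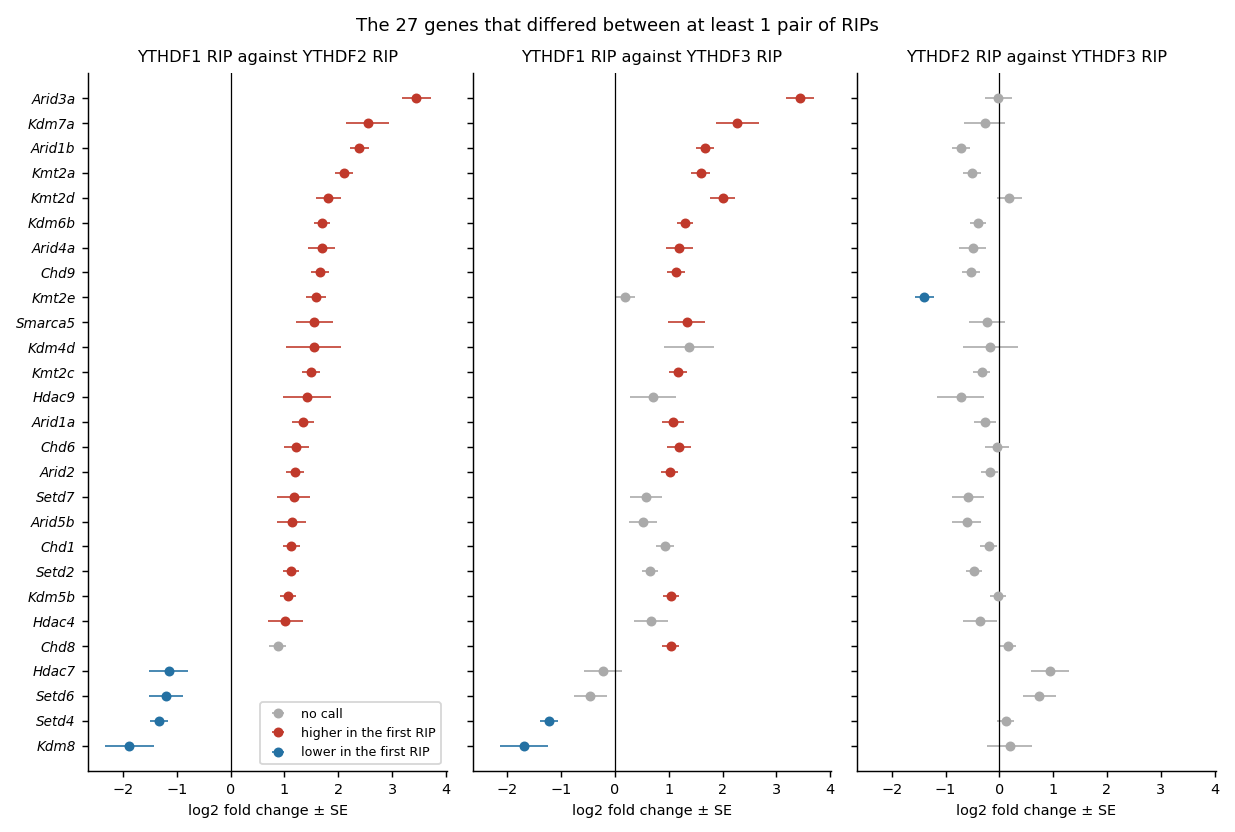
Log2 fold change between RIPs (points, with bars of 1 SE) of the 27 genes that passed the fold and adjusted p thresholds between at least 1 pair of RIPs, in panels for YTHDF1 against YTHDF2, YTHDF1 against YTHDF3 and YTHDF2 against YTHDF3. Most points in the first panels lay to the right of 0, higher in YTHDF1, with Arid3a at 3.45 and 3.43, and Kdm8, Setd4 and Setd6 lay to the left.

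Transcript length followed the log2 fold changes of these genes. The chosen transcripts had a median of 5717 bases, against 3116 over the 13366 protein-coding genes with a transcript. Across the 77 genes, which share the same libraries, the Spearman correlation of log2 fold change with transcript length was 0.794 in YTHDF1, 0.418 in YTHDF2 and 0.737 in YTHDF3, and over all protein-coding genes 0.614, 0.418 and 0.62. The number of DRACH sites, the wider m6A consensus, had correlations of 0.766, 0.406 and 0.723 across the 77, and the number of DRACH sites per kb 0.1, -0.057 and 0.083. For GGACT per kb they were 0.057, 0.112 and 0.072. Genes depleted in the YTHDF1 RIP had transcripts of 1425 to 2755 bases, and those enriched 2695 to 19823 bases, whereas 60 of the 77 were over 3 kb.

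Length classes were therefore compared with all protein-coding genes of the same exonic length. Of the 31 genes with over 10 kb of exonic sequence, 27 were enriched in YTHDF1, 19 in YTHDF2 and 25 in YTHDF3, against 63.5%, 33.3% and 44.9% of protein-coding genes of that class. Of the 32 genes of 5 to 10 kb, 20, 12 and 15 were enriched, against 39.7%, 24.0% and 28.1%. Of the 14 genes under 5 kb, 3, 2 and 1 were enriched, against 16.8%, 10.6% and 8.31%. None of the 31 genes above 10 kb was depleted, where 4.71%, 5.61% and 2.56% of protein-coding genes were depleted. From 5 to 10 kb 4, 3 and 3 were depleted, against 11.8%, 8.39% and 6.76%, and under 5 kb 2, 0 and 1, against 34.1%, 24.4% and 30.9%. Omitting 1 library moved the YTHDF1 depleted count under 5 kb to 5 without YTHDF1 RIP replicate 2, to 0 without Input replicate 2 or YTHDF1 RIP replicate 1, and to 1 without Input replicate 1 or 3, YTHDF1 RIP replicate 3 or YTHDF3 RIP replicate 2. The YTHDF2 depleted count there was 1 without Input replicate 3, and the YTHDF3 depleted count 0 without Input replicate 1 or YTHDF3 RIP replicate 3. From 5 to 10 kb the YTHDF3 depleted count was 1 without Input replicate 3 or YTHDF3 RIP replicate 2. Under 5 kb the enriched count for YTHDF3 was 2 to 3 without Input replicate 3 or YTHDF1 RIP replicate 1, 2 or 3.

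In a further fit the trend on exonic length of each library's log2 ratio to mean Input was removed. Any enrichment that went with length was thereby taken out too. With this trend removed, 32, 17 and 8 of the 77 were enriched and 7, 9 and 9 depleted for YTHDF1, YTHDF2 and YTHDF3. The same fit called 22.0%, 11.3% and 8.68% of all genes enriched and 24.4%, 18.5% and 22.7% depleted, so that in YTHDF3 the share of the 77 was near that of all genes. In YTHDF1, Arid3a (3.80), Kmt2d (1.80), Arid1b (1.76), Kdm7a (1.70), Arid2 (1.59), Kdm6b (1.42) and Kmt2a (1.33) still passed. Setd5 (0.43), Hdac4 (0.50), Kdm1a (0.27), Chd7 (1.08) and Smarca2 (-0.12) no longer did. In YTHDF2, Setd4 (0.97), Kmt2d (0.92), Chd8 (0.86), Arid2 (0.85), Chd4 (0.61) and Setd5 (0.50) still passed. Genes that lost the YTHDF2 call included Kmt2a (0.01), Kmt2c (0.32), Arid1a (0.36), Chd5 (0.50) and Smarca4 (0.39). In YTHDF3, Arid2 (0.72), Setd4 (0.70), Setd1b (0.63), Chd5 (0.53) and Setd2 (0.41) still passed, while Kmt2d (0.32), Kmt2a (0.12), Arid1a (0.31) and Chd8 (0.31) did not. Smarcd3, Smarcb1 and Kmt5a remained depleted in every RIP, and Smarce1 then passed as depleted in each (-0.82, -0.87 and -1.04). The fit used exonic length, which exceeded the chosen transcript in each of these genes. It was 5120 against 1735 bases for Smarcd3 and 7930 against 1660 for Smarcb1. For Kmt5a it was 5307 against 1425, and for Smarce1 6650 against 2919. Removal of a trend on transcript length was not tested. Chd3 (-0.75), Kmt2e (-0.66) and Hdac11 (-0.86) also became depleted in YTHDF2, Hdac5 in YTHDF1 (-0.81) and YTHDF3 (-0.73), and Hdac3 in YTHDF3 (-0.57).

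**Figure D4:**
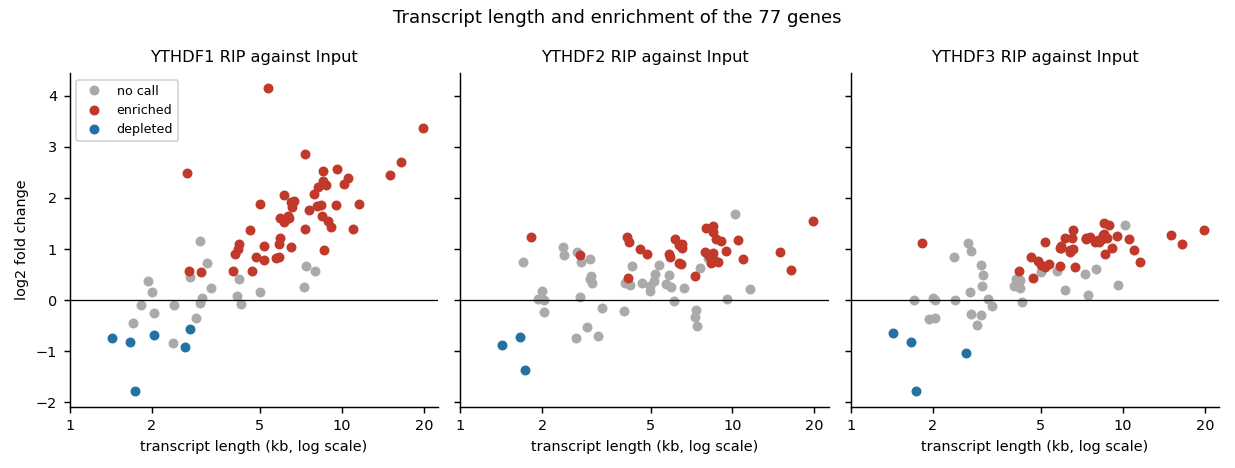
Log2 fold change over Input against transcript length in kb (log axis) for the 77 genes for YTHDF1, YTHDF2 and YTHDF3, 1 point per gene. Points rose with length in the YTHDF1 and YTHDF3 panels (Spearman 0.794 and 0.737) and less in the YTHDF2 panel (0.418), and the depleted genes lay among the short transcripts.

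Input levels were compared per kb of exonic sequence. Chd3 was the most abundant of the 77, at 57.1 ± 9.63 normalised CPM per kb (SD, n = 3), above Smarcc2 at 46.3 ± 1.27, whose range overlapped with that of Smarca4 at 42.0 ± 5.47. Chd5 at 24.3 ± 4.98 and Chd4 at 23.6 ± 3.75 followed and overlapped with each other. Arid3a was at 1.31 ± 0.390 and Setd4 at 0.996 ± 0.0231, near the low end, where Kdm4d, named after its value was seen, was lowest at 0.183 ± 0.0694. The median of the 77 was 6.35 and that of all protein-coding genes tested 4.0 normalised CPM per kb. Across the 77 genes, the Spearman correlation of log2 fold change with this Input level was 0.055, -0.316 and -0.015 for YTHDF1, YTHDF2 and YTHDF3.

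A list of 76 other chromatin genes that the naming rule does not take was read in the same way. It held other methyltransferases, Polycomb and COMPASS partners, acetyltransferases, further BAF subunits, NuRD and corepressor partners, and other remodellers. Of these, 38, 25 and 33 were enriched and 10, 6 and 9 depleted for YTHDF1, YTHDF2 and YTHDF3, with medians of 0.51, 0.35 and 0.39. Of all protein-coding genes, 29.8%, 17.7% and 19.1% were enriched and 23.1%, 16.8% and 19.4% depleted. The YTHDF1 depleted count was 16 without YTHDF1 RIP replicate 2 and 6 without YTHDF1 RIP replicate 3, the YTHDF2 count 2 to 3 without Input replicate 1, 2 or 3 or YTHDF2 RIP replicate 1 or 3, and the YTHDF3 count 4 without YTHDF3 RIP replicate 2. The remodeller genes of this list, such as those of the ISWI, INO80 and NURF complexes, were enriched in 9, 7 and 8 of 10 cases. Its further BAF subunits gave 4, 3 and 4 of 14 (28.6%, 21.4% and 28.6%), near the protein-coding shares for YTHDF1 and YTHDF2.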

How the data were processed

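RNA was measured by RIP-seq in 12 libraries, 3 each of Input and the YTHDF1, YTHDF2 and YTHDF3 RIPs, grouped by their titles. According to the submitters' processing notes and the methods, the authors extracted molecular identifiers with UMI-tools (1.1.1), trimmed with cutadapt (3.4), aligned to mm10 (GRCm38) with STAR (2.7.7a), removed duplicates, and counted fragments per gene with featureCounts (2.0.1) on Ensembl annotation. The deposited values are raw counts. Per the file headers, the counting was stranded and gave fragments with several alignments or several overlapping genes to each, so near-identical and overlapping genes are uncertain. Of the 77 genes, 8 shared exonic bases on the same strand with another gene, and Setd1a (51.8% of bases) and Chd2 (18.4%) did so over more than 5%. The deposited comparison tables hold the authors' mean scores, log2 fold changes and p-values. They served only to read symbols and gene types, and no value of theirs is used.

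Genes with a mean of at least 10 normalised counts were fitted with edgeR (4.0.16, R 4.3.3) as 1 model of 4 groups, with TMM factors over the genes tested, quasi-likelihood F tests, and p-values adjusted after Benjamini and Hochberg over 17126 genes. SE is the absolute log2 fold change divided by the square root of F. Normalised CPM are counts scaled by TMM-adjusted library size to a common total. Thresholds were the study's fold change against Input (0.32 on the log2 scale), a fold change of 2 between RIPs, and an adjusted p of 0.05. The script was tested on simulated counts. Replicates are those of the labels, called biological in the methods. Same-numbered YTHDF3 and Input libraries deviated together, with correlations of 0.528 to 0.829 over genes after removal of group means, and were taken as paired, as the methods describe 1 lysate pool per replicate. In the other 5 comparisons the lowest correlation was between -0.348 and 0.059. Alternatives were DESeq2 (1.42.0), its size factors in edgeR, library size alone, TMM over protein-coding genes, no filter, a minimum of 50 counts, removal of the length trend, the replicate block, 2 groups alone, and omission of each library. The length trend was a loess (span 0.3) of each library's log2 ratio to mean Input on exonic length. Transcript lengths and sequences came from GENCODE annotation and the genome of GRCm38, the build of the files. The naming rule, gene lists and named genes were chosen with earlier results of these data known. Genes were named from a set list, together with the 4 highest and 4 lowest of each comparison with Input with a mean of at least 100 normalised counts, and the most different between RIPs.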

Additional observations from a re-analysis of the deposited data

Results flagged for a closer look

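Some chromatin genes differed between the precipitated proteins by the direct tests, and these differences are listed as values without an explanation. Between YTHDF1 and YTHDF2, 22 genes were higher and 4 lower in YTHDF1 (edgeR, fold change of at least 2), against 11.4% and 6.1% of all genes. Between YTHDF1 and YTHDF3, 15 were higher and 2 lower, against 10.8% and 3.63%. With library size alone 3 were higher and 9 lower, against 4.48% and 20.1% of all genes. With the length trend removed, 9 genes were higher in YTHDF1 than in YTHDF2 and 9 than in YTHDF3. These counts were near the 10.1% and 10.8% of all genes in that fit. Between YTHDF2 and YTHDF3, 1 gene, Kmt2e, was lower in YTHDF2, at -1.40 on the log2 scale, against 1.16% of all genes lower. The joint test of the 3 RIPs passed for 43 genes, against 32.3% of all genes. With TMM factors the counts of lower genes were near the shares of all genes.

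Among the genes with the largest differences, Arid3a stood 3.45 higher in YTHDF1 than in YTHDF2 and 3.43 higher than in YTHDF3 (log2). Kdm7a was 2.55 and 2.28 higher in the same comparisons, Arid1b 2.39 higher than in YTHDF2, and Kmt2d 2.005 higher than in YTHDF3. In the other direction the YTHDF1 to YTHDF2 difference was -1.89 for Kdm8, -1.33 for Setd4 and -1.20 for Setd6, and the YTHDF1 to YTHDF3 difference -1.70 for Kdm8 and -1.22 for Setd4. With 3 libraries in each group, no single library was tested as standing apart from its group.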

How the results depend on the processing

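Of 2962 values of named genes recomputed under the alternatives, 2620 kept their direction and their side of the threshold. Without a change of sign 169 lost a call and 95 gained 1, while 78 changed sign, some of them also losing a call. The total includes fits that left out a library of another group than those compared. With the length trend removed 71 were kept, 31 lost a call, 10 gained 1 and 17 changed sign. With the block added these were 64, 36, 11 and 18. The cause of these changes was not tested, except that dropping a library or taking 2 groups alone leaves fewer samples. Depth limits the genes with few counts, such as Kdm8 and Setd6, at 33.2 and 77.6 normalised counts per library. Members enriched over Input numbered 50, 33 and 41 for YTHDF1, YTHDF2 and YTHDF3, and with the length trend removed 32, 17 and 8 (28, 14 and 8 with the replicate block as well). Those depleted numbered 6, 3 and 4, and 9 in YTHDF2 and 9 in YTHDF3 with the length trend removed (8 and 8 with the block). Without a filter 20 were enriched in YTHDF2, against 4.58% of all genes, and 5 and 2 depleted in YTHDF2 and YTHDF3, against 8.2% and 8.53%. Library size alone gave 11 depleted in YTHDF1 and 2 in YTHDF3, against 36.3% and 17.7% of all genes.

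Between YTHDF1 and YTHDF2, 9 genes were higher in YTHDF1 with the length trend removed and 9 with the block added, against 10.1% and 9.58% of all genes. With library size alone 11 were higher and 9 lower, against 6.24% and 16.3%. Between YTHDF1 and YTHDF3 the number higher was 9 with the length trend removed (10.8% of all genes in that fit) and 9 with the block added (9.68%). It was 8 with TMM over protein-coding genes (7.98%), 8 without a filter (4.92%), 6 with the 2 groups alone (5.21%) and 3 with library size alone (4.48%). The number lower was 9 with library size alone (20.1%) and 1 with a minimum of 50 counts (4.29%). With the length trend removed, the numbers higher in YTHDF1 were thus near the shares of all genes. Between YTHDF2 and YTHDF3, 1 was higher with the length trend removed and 1 with the block added, against 3.53% and 3.03% of all genes. Lower were 3 with library size alone and 2 without a filter, against 4.19% and 1.73%.

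The median log2 fold change over Input was 1.06, 0.69 and 0.71. With the length trend removed it was 0.27, 0.24 and 0.066 (0.25, 0.25 and 0.068 with the block added), with TMM over protein-coding genes 0.82 in YTHDF1 and 0.58 in YTHDF2, with library size alone 0.65 in YTHDF1 and 1.03 in YTHDF3, and without a filter 0.59 in YTHDF2 and 0.83 in YTHDF3. Between YTHDF1 and YTHDF2 the median of 0.58 became 0.43 with TMM over protein-coding genes, 0.18 with the length trend removed (0.18 with the block added), 0.10 with library size alone and 0.47 with a minimum of 50 counts. Between YTHDF1 and YTHDF3 the median of 0.41 became 0.21 with the 2 groups alone, 0.20 with TMM over protein-coding genes, 0.29 with a minimum of 50 counts, 0.23 without a filter and -0.33 with library size alone. Between YTHDF2 and YTHDF3 the median of -0.13 became -0.25 with the 2 groups alone, 0.093 with the length trend removed (0.091 with the block added), -0.37 with library size alone and -0.36 without a filter.

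Only YTHDF3 and Input had same-numbered correlations well above 0 in every replicate, and only they were taken as paired. Those of YTHDF1 and YTHDF2 with each other were 0.059, 0.544 and 0.348 in replicates 1, 2 and 3. Replicate 2 of the YTHDF1 and YTHDF2 RIPs correlated with Input replicate 3, at 0.467 and 0.560. With the 2 groups alone and the replicate block, 1 gene was depleted in YTHDF1 against Input, where 17.7% of all genes were. In YTHDF1 against YTHDF3, 1 was higher and 0 lower (median 0.19), against 1.85% and 0.596% of all genes. The median between YTHDF2 and YTHDF3 was -0.25. The methods describe lysate pools split over the RIPs, but in these comparisons same-numbered libraries did not all deviate together, and whether the numbers mark the same lysates is not known. For YTHDF3 against Input the same fit gave 56 enriched and 5 depleted, against 36.3% and 32.2% of all genes.

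Leaving out each library in turn gave 3 to 10 depleted in YTHDF1, 2 to 4 depleted in YTHDF3, 2 to 5 lower in YTHDF1 than in YTHDF2, 1 to 3 lower in YTHDF1 than in YTHDF3, and 0 to 1 higher in YTHDF2 than in YTHDF3. The medians ranged over 0.89 to 1.102, 0.58 to 0.70 and 0.66 to 0.78 in YTHDF1, YTHDF2 and YTHDF3 against Input, 0.50 to 0.64 between YTHDF1 and YTHDF2, 0.26 to 0.46 between YTHDF1 and YTHDF3, and -0.20 to -0.079 between YTHDF2 and YTHDF3. Log2 fold changes over Input that changed sign in these fits were those of Hdac1 in YTHDF2 (-0.17 to 0.16) and YTHDF3 (-0.18 to 0.22), Hdac2 in YTHDF1 (-0.34 to 0.36) and YTHDF3 (-0.10 to 0.20), Hdac5 in YTHDF1 (-0.28 to 0.075) and YTHDF3 (-0.28 to 0.16), Kdm7a in YTHDF2 (-0.27 to 0.28) and Setd6 in YTHDF3 (-0.12 to 0.20).

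The log2 fold changes over Input of single genes changed sign as follows. With the length trend removed the sign changed for Arid1b -0.054 (YTHDF2), Chd3 -0.43 (YTHDF1) and -0.16 (YTHDF3), Hdac1 -0.042 (YTHDF2), Hdac2 -0.015 (YTHDF2) and -0.25 (YTHDF3), Kdm1a -0.13 (YTHDF3), Kdm5d -0.67 (YTHDF1) and -0.33 (YTHDF3), Kdm6a -0.17 (YTHDF2), Kdm6b -0.12 (YTHDF2), Kdm7a -0.44 (YTHDF2) and -0.45 (YTHDF3), Smarca2 -0.12 (YTHDF1) and -0.065 (YTHDF2) and -0.24 (YTHDF3) and Smarcc2 -0.036 (YTHDF3). With the length trend removed and the replicate block fitted the sign changed for Arid1b -0.053 (YTHDF2), Chd3 -0.43 (YTHDF1) and -0.16 (YTHDF3), Hdac1 -0.049 (YTHDF2), Hdac2 -0.045 (YTHDF1) and -0.046 (YTHDF2) and -0.24 (YTHDF3), Kdm1a -0.13 (YTHDF3), Kdm5d -0.68 (YTHDF1) and -0.32 (YTHDF3), Kdm6a -0.16 (YTHDF2), Kdm6b -0.12 (YTHDF2), Kdm7a -0.41 (YTHDF2) and -0.45 (YTHDF3), Smarca2 -0.12 (YTHDF1) and -0.068 (YTHDF2) and -0.24 (YTHDF3) and Smarcc2 -0.037 (YTHDF3). With TMM over protein-coding genes the sign changed for Hdac1 -0.091 (YTHDF2), Hdac2 -0.082 (YTHDF1), Kdm7a -0.0902 (YTHDF2) and Setd6 -0.022 (YTHDF3). Without a filter the sign changed for Hdac1 -0.09 (YTHDF2) and 0.13 (YTHDF3), Hdac5 0.084 (YTHDF3) and Kdm7a -0.081 (YTHDF2). With library size alone the sign changed for Chd3 -0.15 (YTHDF1), Hdac1 0.32 (YTHDF3), Hdac2 -0.26 (YTHDF1) and Hdac5 0.27 (YTHDF3). With the 2 groups alone the sign changed for Hdac1 0.059 (YTHDF3) and Hdac5 0.0052 (YTHDF3). With the 2 groups alone and the replicate block the sign changed for Hdac1 0.072 (YTHDF3) and Hdac2 -0.028 (YTHDF1). With DESeq2 the sign changed for Hdac1 0.041 (YTHDF3). With its size factors in edgeR the sign changed for Hdac1 0.0399 (YTHDF3). With the replicate block in the fit of all groups the sign changed for Hdac1 0.012 (YTHDF3) and Setd6 -0.0031 (YTHDF3).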
